A study of Arabidopsis thaliana with 69 samples.

Results

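The comparison was that of Arabidopsis thaliana cultures 24 h after induction of the xylem vessel factor VND7, 3 arrays given dexamethasone (DEX) against 3 given its solvent DMSO, which are 6 of the 69 arrays of the series. The groups were taken from the sample labels, and every probe set other than the array maker's controls was kept, 22746 in all. Per the labels, both groups were ecotype Col-0 and carried VND7-VP16-GR, a fusion of VND7 with the activation domain VP16 and with GR, the domain of the glucocorticoid receptor that binds the hormone, driven by the 35S promoter, which is active in most tissues. The cultures were T3 seeds grown in liquid medium with sucrose in the dark for 6 days, and the treated flasks then received 10 µM DEX. The labels name hypocotyl as the tissue, while the protocol describes whole flasks being decanted and milled, so the RNA was that of mixed cell types. The empty-vector line, with VP16-GR but no VND7, had the same treatments at 24 h in 3 arrays each. It is used below beside the 12 h and 30 h arrays of the VND7 line. The replicates are called biological in the labels, which do not say whether each came from a flask of its own, so the p-values measure only the spread between arrays of a group, here taken over all groups of the series, which may be technical.

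VND7 is a NAC transcription factor that acts as a master switch of vessel formation. A cell in which it is active lays down a patterned secondary wall of cellulose, xylan and lignin, and then dies and digests its contents, which leaves a hollow tube for water. In a GR fusion the factor is held out of the nucleus until DEX is added, so a treatment labelled DEX marks the time from which VND7 can act. VND7 itself is named by no probe set used here, so its own level was not analysed here.

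The measurements were log2 signals of Affymetrix ATH1 arrays, on which 1 unit is a doubling and a value of 2.14 is the floor of the normalization. Here a value less than 0.3 above it is said to be at the floor. Some probe sets repeat a low value above this, which that rule does not count. The array medians in the VND7 line at 24 h were 5.13, 5.51 and 5.52 in DMSO replicates 1, 2 and 3 and 5.03, 5.43 and 5.03 in DEX replicates 1, 2 and 3, and every list of 3 values below keeps that order. The difference between the 3' and 5' actin control probe sets, a sign of RNA quality, was 1.14 to 1.31 in these 6 arrays, with group means of 1.21 and 1.21. The number of arrays limits the precision.

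A pair of the 6 arrays did not resemble the others of their label. Over the 22746 probe sets DMSO replicate 1 had a Pearson correlation of 0.847 and 0.856 with DMSO replicates 2 and 3, but of 0.956 and 0.960 with DEX replicates 1 and 3. Its nearest arrays in the series were DMSO 6 h replicate 2 (0.990), DMSO 1 h replicate 2 (0.988) and DEX 30 h replicate 2 (0.979), the first 2 of which are themselves arrays that stand with the other label. DEX replicate 2 correlated at 0.877 and 0.883 with DEX replicates 1 and 3 and at 0.971 and 0.973 with DMSO replicates 2 and 3, and its nearest array was DEX 1 h replicate 2 (0.996). The 4 remaining arrays formed tight couples, DMSO replicates 2 and 3 at 0.993 and DEX replicates 1 and 3 at 0.992. In the empty-vector line at 24 h the lowest correlation between any 2 of the 6 arrays was 0.994. Each result is therefore given with all 6 arrays under their labels and again without these 2, here called the 2 doubtful arrays. They were picked from these values, so leaving them out raises the number of calls by construction. Why they differ was not tested.

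With all 6 arrays, 657 probe sets rose and 333 fell in a fit that takes its spread from all 69 arrays. With the spread of the 2 compared groups alone, 1 was called. The rises took in a filament-like protein gene, an endoglucanase and a xylan acetylation gene, and the falls an acyltransferase and a pectin methylesterase gene, all described below. A probe set was called where limma's Benjamini-Hochberg adjusted p was under 0.05 and the log2 change was 1 or more in size, that is, a doubling or halving. A value after ± beside a change is the standard error of that fit. The rises were 2.89% and the falls 1.46% of the probe sets tested. Without the 2 doubtful arrays 2597 were called up and 3666 down, 11.4% and 16.1%, which is 27.5% together. These shares are the background of every count of called members below. Centring each array on its median shifted every change upward by 0.22 and gave 866 rises and 211 falls with all arrays. Without the 2 arrays it shifted them by 0.48 and gave 4489 and 2581. The directions below are those without centring, and no called change of a gene named below turned under it with all arrays. Of the 657 rises, 623 were called up again without the 2 arrays, which is 94.8% of the former and 24.0% of the latter. Of the 333 falls, 300 were called down again, 90.1% and 8.18%, and none was called in opposite directions. The median change of all probe sets was 0.00 in both fits. The 3 DEX arrays lay above the 3 DMSO arrays in 819 probe sets (3.60%) and below them in 966 (4.25%). Over the 4 arrays other than the doubtful ones DEX lay above DMSO in 6305 (27.7%) and below it in 7350 (32.3%). Among the called probe sets the 6 arrays did not overlap for 317 of the 657 rises and 180 of the 333 falls.

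The steepest rises whose groups did not overlap were led by AT1G21810, a gene of the filament-like plant protein family and 1 of the 3 markers of this comparison. Its signal was 3.81, 2.47 and 3.00 in DMSO and 9.11, 7.77 and 8.78 in DEX. All 3 DEX arrays stood far above all 3 DMSO arrays, and DMSO replicate 1 was only slightly above its companions. The log2 change was 5.46 ± 0.78, a 44-fold rise (limma adjusted p = 6.41e-05), and 6.21 ± 0.95 without the 2 arrays.

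GH9B18, the second marker, encodes a glycosyl hydrolase of family 9, whose members cleave glucan chains such as cellulose. It was at the floor in DMSO, at 2.19, 2.19 and 2.19, and at 5.69, 8.22 and 6.04 in DEX. DEX replicate 2, which stood with DMSO over the whole array, carried the highest signal of the 6. The change was 4.46 ± 0.86 (limma adjusted p = 0.00121) and 3.67 ± 1.04 without the 2 arrays. It is 1 of 2 called members among 15 measured genes of the family. The other was its relative GH9B17, at the floor in all 3 DMSO arrays and at 7.42, 2.14 and 7.12 in DEX, so that DEX replicate 2 did not show that rise (3.42 ± 1.01, limma adjusted p = 0.0293). Without the 2 arrays 4 of the 15 were called up and 3 down, against 11.4% and 16.1% of all probe sets. The 3 called down were GH9C2, GH9B13 and GH9B8.

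TBL34, the third marker, encodes an enzyme that adds acetyl groups to xylan. Its signals were 11.54, 6.47 and 7.07 in DMSO and 12.97, 11.81 and 12.90 in DEX. The groups stayed apart by a narrow margin, since DMSO replicate 1 almost reached DEX replicate 2. The change was 4.20 ± 1.23 (limma adjusted p = 0.0289), and 6.17 ± 1.42 without the 2 arrays. Of the 22 measured genes of the TBL family 1 other was called, TBL35, also a xylan acetylation gene, which fell: 7.11, 6.79 and 6.70 in DMSO and 5.79, 5.88 and 5.85 in DEX. Its change of −1.02 ± 0.22 (limma adjusted p = 0.00321) became −0.92 without the 2 arrays, short of the minimum change. Without the 2 arrays the 22 had 2 members up and 4 down, against 11.4% and 16.1% of all probe sets.

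The 15 largest rises of this kind ran from 3.67 to 5.46 on the log2 scale, and 13 of the genes read higher in DMSO replicate 1 than in both other DMSO arrays. AT1G06170, a bHLH transcription factor gene known from the tapetum of the anther, was at the floor in all DMSO arrays, at 2.15, 2.14 and 2.14, and at 7.94, 5.48 and 7.54 in DEX (4.85 ± 0.72, limma adjusted p = 6.41e-05). AT1G62170 and AT1G64010, genes of the serpin family of protease inhibitors, were on the list. Other serpin genes were not counted. AT1G62170 read 2.32, 2.14 and 2.14 in DMSO and 5.71, 6.12 and 6.38 in DEX (3.87 ± 0.63, limma adjusted p = 0.00019). AT1G64010 read 3.43, 2.43 and 2.54 in DMSO and 6.82, 8.02 and 6.47 in DEX, highest again in DEX replicate 2 (4.30). AT4G14200 had tight groups, with 5.34, 5.48 and 5.54 in DMSO and 9.13, 9.19 and 9.04 in DEX, and neither doubtful array stood apart from its label (3.67 ± 0.63, limma adjusted p = 0.00037).

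In other rises of the list the 2 doubtful arrays lay between the rest. NCRK, a receptor-like cytoplasmic kinase gene, read 7.23, 3.86 and 4.22 in DMSO and 10.82, 8.04 and 10.42 in DEX (4.66 with all arrays, 6.58 without the 2). AT1G63520 read 7.94, 3.34 and 3.18 and 10.63, 8.07 and 10.57 (4.93 and 7.34), and AT5G58120, a TIR-NBS-LRR receptor gene, read 8.37, 5.32 and 5.10 and 10.94, 8.48 and 10.82. In both genes DMSO replicate 1 and DEX replicate 2 were nearly equal, and both lay between the couples. The remaining 5 of the 15 were AT2G20720, AT1G75730, AT1G13470, the flavin monooxygenase gene AT5G07800 and AT3G15250, with changes of 3.74 to 3.94.

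**Figure D1:**
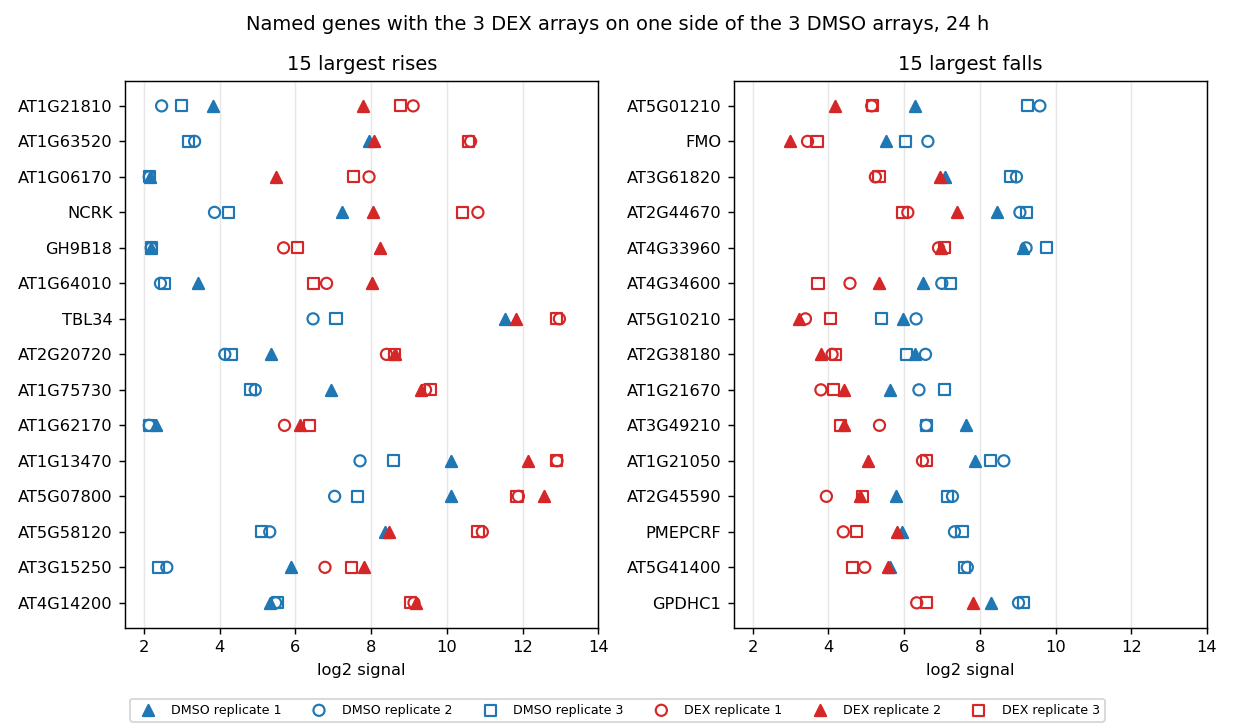
Log2 signal (x axis) of the 15 largest rises (left) and the 15 largest falls (right) among called genes with no overlap between the 3 DEX and the 3 DMSO arrays, in the VND7 line at 24 h. Blue is DMSO, red is DEX, each point is 1 array, and filled triangles are DMSO replicate 1 and DEX replicate 2; GH9B18 is highest in DEX replicate 2, at 8.22, and in AT1G63520 the 2 triangles nearly coincide at 7.94 and 8.07.

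The gene lists below are covered only in part, since genes named by no probe set used here were not looked at. The measured genes were 5 of 20 for secondary wall cellulose and xylan and 4 of 18 for lignin precursors. They were 7 of 10 for lignin polymerisation, 7 of 13 for cell death and 6 of 19 for chlorophyll and carbon fixation. Of 28 genes listed for the regulation of secondary walls, 1 was measured under its name. AT1G66810 is C3H14, a CCCH zinc finger gene that acts in secondary wall formation. Its signal was 8.29, 2.64 and 2.83 in DMSO and 10.72, 6.79 and 10.90 in DEX, with DMSO replicate 1 above DEX replicate 2. It was called up with all arrays, at 4.89 ± 1.40 (limma adjusted p = 0.026), and reached 8.08 ± 1.54 without the 2 arrays. The gene for KINESIN-13A, a microtubule-depolymerising motor that shapes the pits of vessel walls, was the 1 measured member of the list on wall patterning. It read 9.19, 9.05 and 9.25 in DMSO and 10.70, 10.04 and 10.67 in DEX, with no overlap, and rose by 1.31 ± 0.22 (limma adjusted p = 0.000206).

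Among 5 measured genes of secondary wall cellulose and xylan 1 rose with all arrays, the marker TBL34, and 4 were called up without the 2 arrays. IRX15 and IRX15-L act on xylan chain length, and GUT2 (IRX10) is a subunit of the xylan synthase. IRX15 was at or near the floor in DMSO replicates 2 and 3 and in DEX replicate 2, with 9.05, 2.17 and 2.17 in DMSO and 10.70, 2.47 and 10.53 in DEX. The all-array change was 3.44 ± 1.96 and was not called (limma adjusted p = 0.297), against 8.45 ± 2.07 without the 2 arrays. IRX15-L read 10.56, 6.16 and 6.43 in DMSO and 12.36, 5.52 and 12.62 in DEX, with DEX replicate 2 the lowest of the 6. GUT2 read 10.87, 6.49 and 6.47 in DMSO and 12.36, 8.61 and 12.46 in DEX, with DEX replicate 2 about 2 units above DMSO replicates 2 and 3. In all 3 genes the groups overlapped because DMSO replicate 1 lay above DEX replicate 2. GUT1, a homologue of GUT2, was between 8.42 and 9.12 in all 6 arrays.

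None of the 11 measured lignin genes was called up with all arrays, where 2.89% of all probe sets were. Of 4 measured genes for lignin precursors and their shikimate supply none was called with all arrays and 3 were called up without the 2, with medians of 0.28 and 1.24. CCR2, a cinnamoyl-CoA reductase gene, read 8.32, 2.55 and 2.45 in DMSO and 6.30, 2.46 and 6.11 in DEX, so its highest array was labelled DMSO. Of 7 genes for polymerisation, all peroxidases, 1 fell with all arrays and 3 were called up and 1 down without the 2. AT5G51890 (PRX66) and AT5G66390 (PRX72) are peroxidases of lignifying vessels. AT5G51890 read 14.05, 10.21 and 10.55 in DMSO and 14.22, 10.68 and 14.27 in DEX, and AT5G66390 read 13.71, 9.62 and 10.43 and 13.57, 10.74 and 13.55. Both were called up without the 2 arrays, at 3.87 and 3.54. PRX52, a peroxidase gene of lignification, was at the floor in DMSO replicates 2 and 3 and DEX replicate 2 and highest in DMSO replicate 1, at 9.93, 2.14 and 2.14 in DMSO and 6.89, 2.14 and 7.11 in DEX. The fall was that of AT2G22420 (PRX17), which read 7.58, 7.18 and 6.61 in DMSO and 5.62, 5.98 and 5.45 in DEX (−1.44 ± 0.41, limma adjusted p = 0.0254).

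None of 7 measured genes of vessel cell death and autolysis was called with all arrays, and 5 were called up without the 2, with list medians of 2.64 and 7.03. AT4G04460, a vacuolar aspartic protease gene (PASPA3) used as a marker of developmental cell death, read 13.30, 6.45 and 6.10 in DMSO and 13.65, 9.18 and 13.64 in DEX. AT4G18425 (DMP4), a membrane protein gene induced in dying cells, read 12.71, 6.28 and 6.54 and 13.46, 9.34 and 13.41. In both, DMSO replicate 1 was within 1 unit of DEX replicates 1 and 3, and DEX replicate 2 lay about 3 above DMSO replicates 2 and 3. ALPHA-VPE, a vacuolar processing protease gene, read 10.13, 3.21 and 3.34 in DMSO and 11.16, 4.11 and 10.83 in DEX, and AT2G14095 (EXI1) read 11.68, 3.76 and 3.77 and 12.09, 3.92 and 11.11. In these DEX replicate 2 was within 1 unit of DMSO replicates 2 and 3. The fifth was the carboxypeptidase gene SCPL48, with 14.64, 10.03 and 10.27 in DMSO and 14.79, 12.86 and 14.78 in DEX. The related BETA-VPE and GAMMA-VPE, with changes of −0.56 and −0.10, were called in neither fit.

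Autophagy, the delivery of cell contents to the vacuole, showed the same arrangement of arrays at a smaller scale. Of 10 measured genes none was called with all arrays and 9 were called up without the 2, with medians of 0.65 and 1.71. ATG8H read 10.04, 7.24 and 7.63 in DMSO and 11.28, 7.46 and 11.15 in DEX, and ATG8E read 11.51, 8.93 and 8.99 and 11.29, 9.04 and 11.18. The mean of the 10 genes was 10.8 in DMSO replicate 1 against 9.21 and 9.44 in the other DMSO arrays, and 9.17 in DEX replicate 2 against 11.2 and 11.1 in the other DEX arrays. In the cell death list that mean was 8.33 in DEX replicate 2, above the 6.90 and 6.94 of DMSO replicates 2 and 3, while for autophagy DEX replicate 2 was below them. The 4 measured reference genes, used elsewhere as stable controls, had means of 8.73 to 9.02 in the 6 arrays, and none was called in either fit.

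**Figure D2:**
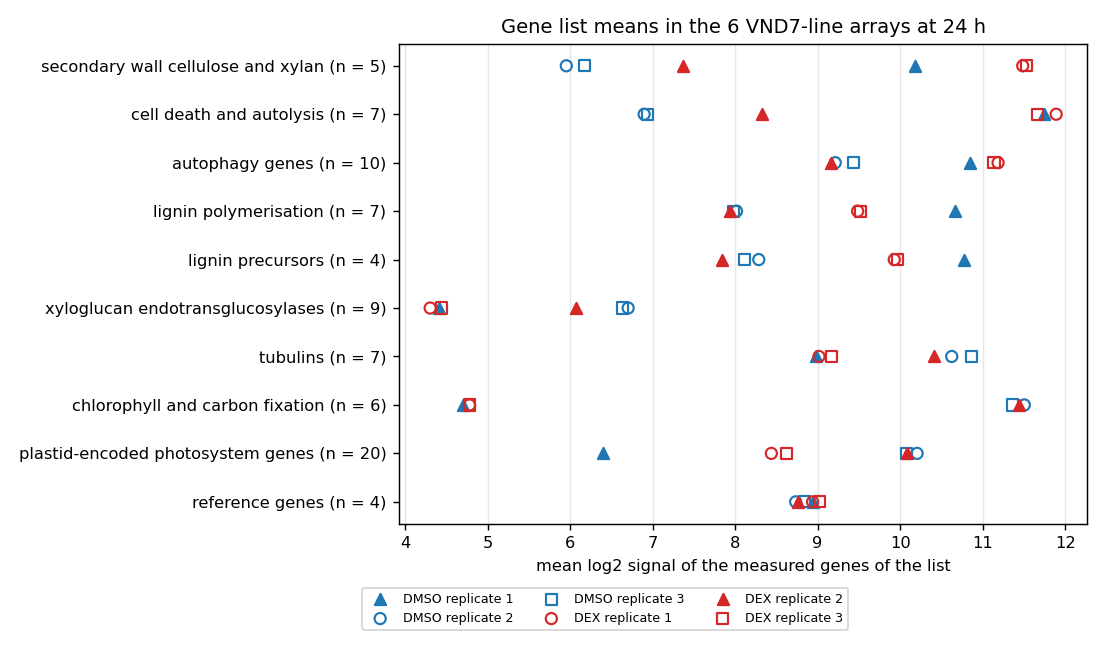
Mean log2 signal (x axis) of the measured genes of 10 lists (y axis, n genes each) in the 6 VND7-line arrays at 24 h; blue is DMSO, red is DEX, each point is 1 array, and filled triangles are DMSO replicate 1 and DEX replicate 2. Outside the reference genes, which stay between 8.73 and 9.02, the blue triangle lies nearer the open red points and the red triangle nearer the open blue points, which for the cell death list are at 6.90 and 6.94 with the red triangle at 8.33.

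The falls with all arrays were smaller than the rises. The 15 largest with groups that did not overlap ran from −3.56 to −1.91. AT5G01210, a gene of the HXXXD acyltransferase family, read 6.29, 9.58 and 9.26 in DMSO and 5.14, 4.17 and 5.15 in DEX (−3.56 ± 1.13, limma adjusted p = 0.0421), with DMSO replicate 1 about 3 below its companions. AT2G38180, a GDSL-type esterase gene, had tight groups, 6.07 to 6.56 in DMSO and 3.79 to 4.18 in DEX (−2.28 ± 0.34, limma adjusted p = 6.97e-05). FMO, a flavin monooxygenase gene, read 5.51, 6.63 and 6.02 and 3.45, 2.97 and 3.70 (−2.68). In both genes the 2 doubtful arrays kept to their labels.

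AT4G33960 read 9.13, 9.22 and 9.75 in DMSO and 6.91, 6.96 and 7.06 in DEX, and AT4G34600, which encodes the Casparian strip peptide CIF2, read 6.50, 6.99 and 7.22 and 4.57, 5.34 and 3.72. In AT3G61820, an aspartyl protease gene, DMSO replicate 1 and DEX replicate 2 nearly met, at 7.08, 8.97 and 8.81 in DMSO and 5.24, 6.94 and 5.34 in DEX. PMEPCRF, a pectin methylesterase gene, had the same near overlap, with 5.93, 7.33 and 7.53 and 4.39, 5.80 and 4.73 (−1.95 ± 0.45, limma adjusted p = 0.00545). GPDHC1, a glycerol-3-phosphate dehydrogenase gene, read 8.29, 9.02 and 9.16 in DMSO and 6.33, 7.83 and 6.59 in DEX (−1.91). The rest of the 15 were AT2G44670, AT5G10210, AT1G21670, AT3G49210, AT1G21050, AT2G45590 and AT5G41400, with changes of −2.43 to −1.91.

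Among the wall genes of growing cells few reached a call with all arrays. Those that fell were PMEPCRF, 1 of 5 pectin genes, and CSLC04, a xyloglucan glucan synthase gene and 1 of 8 cellulose synthase-like genes, which read 8.48, 10.21 and 10.51 in DMSO and 8.00, 9.15 and 7.96 in DEX (−1.36 ± 0.44, limma adjusted p = 0.0431). The xyloglucan endotransglucosylases, which cut and rejoin xyloglucan, had 0 of 9 called with all arrays, 5 of 9 called down without the 2, and medians of −0.90 and −2.06. XTH19 read 7.66, 11.66 and 11.79 in DMSO and 7.05, 10.77 and 6.97 in DEX. Of 18 expansins and relatives, which loosen walls, 1 rose with all arrays, and 2 were called up and 8 down without the 2. Of all probe sets 11.4% were called up and 16.1% down without the 2. EXPA8 read 3.09, 8.48 and 9.35 in DMSO and 2.37, 5.83 and 3.09 in DEX, and was not called with all arrays (limma adjusted p = 0.108). The expansin that rose was EXPA21, at the floor in DMSO, at 2.14, 2.14 and 2.14, and at 7.04, 2.14 and 7.39 in DEX (3.39 ± 0.90, limma adjusted p = 0.0159), where DEX replicate 2 too was at the floor.

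Of 7 tubulin genes 0 were called with all arrays and 4 were called down without the 2, against 16.1% of all probe sets. TUB5 read 7.04, 10.84 and 11.32 in DMSO and 6.50, 10.46 and 6.85 in DEX, and TUB1 read 6.56, 10.26 and 10.45 and 6.90, 9.79 and 7.05. TUA6 varied little, from 12.54 to 13.41. For COB, which guides cellulose deposition in expanding cells, the signals were 10.19, 11.04 and 11.43 in DMSO and 9.03, 11.10 and 9.32 in DEX, and all 3 measured primary wall genes were called down without the 2 arrays and none with them.

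The largest falls without the 2 arrays included genes of chlorophyll synthesis, in cultures kept in the dark. All 6 measured genes of that list were called down without the 2 arrays and none with all arrays, with medians of −6.82 and −2.25. AT1G74470, the geranylgeranyl reductase gene that supplies the chlorophyll side chain, read 4.49, 13.04 and 12.80 in DMSO and 3.55, 12.76 and 3.55 in DEX. The change was −3.49 ± 1.92 with all arrays (limma adjusted p = 0.276) and −9.37 ± 1.86 without the 2, the largest fall of the 4-array fit among genes of 1 name. PORB, the light-dependent protochlorophyllide reductase gene that is active in etiolated seedlings, read 4.22, 12.16 and 12.60 in DMSO and 4.76, 12.76 and 4.39 in DEX. PRK, for the Calvin cycle enzyme phosphoribulokinase, read 2.40, 9.82 and 9.66 in DMSO and 2.38, 9.99 and 2.38 in DEX. In each of these DMSO replicate 1 was within 1 unit of DEX replicates 1 and 3, and DEX replicate 2 within 1 unit of DMSO replicates 2 and 3.

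Of 7 nuclear photosystem and antenna genes 5 were called down without the 2 arrays, PSBY at −7.55 among them. The 20 photosystem genes encoded in the plastid had means of 6.40 in DMSO replicate 1, 10.2 and 10.1 in DMSO replicates 2 and 3, 8.44 and 8.63 in DEX replicates 1 and 3 and 10.1 in DEX replicate 2. DMSO replicate 1 was thus lower than either low DEX array, and 7 of the 20 were called down without it and DEX replicate 2.

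Of the genes that make flavonoids, 3 were measured, none was called with all arrays and all 3 were called down without the 2. DFR, the dihydroflavonol reductase gene of the anthocyanin branch, read 2.14, 8.44 and 7.90 in DMSO, was at the floor in DEX replicates 1 and 3, and lay between the couples in DEX replicate 2. Among 12 auxin response genes 1 rose with all arrays, IAA30, an Aux/IAA gene, which read 3.63, 2.36 and 2.36 in DMSO and 8.03, 3.31 and 8.03 in DEX (3.68 ± 0.78, limma adjusted p = 0.00313). GH3.3, which conjugates auxin to amino acids, was called down without the 2 arrays, with 2.35, 6.80 and 7.16 in DMSO and 2.14, 4.05 and 2.14 in DEX. CLE27, a gene for a small signalling peptide, rose by 1.50 ± 0.49 (limma adjusted p = 0.0452), 1 of 6 CLE genes.

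The largest families picked by symbol are read against 4.35% of all probe sets called with all arrays and 27.5% without the 2. Of 47 UDP-glycosyltransferases 1 fell with all arrays, and 6 were called up and 4 down without the 2. Of 29 serine carboxypeptidase-like genes 2 rose and 1 fell with all arrays, and 5 were called up and 7 down without the 2. None of 24 cytochromes P450, 20 beta-glucosidases, 14 glutathione transferases or 8 subtilases was called with all arrays. Without the 2 arrays the calls up and down were 1 and 2, 3 and 3, 4 and 2, and 0 and 3 in that order.

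Markers of other tissues differed between the arrays as well. In bulk RNA fewer cells of a type and less RNA per cell cannot be told apart. SWEET11, a sucrose exporter gene of the phloem, read 3.47, 11.01 and 11.80 in DMSO and 6.59, 11.67 and 6.55 in DEX, and was called down without the 2 arrays, at −4.83. The root ground tissue genes AT1G09750 and AT1G62500 were called down without the 2 arrays, with 3.40, 10.14 and 10.49 and 2.45, 7.51 and 5.71 in DMSO and 3.61, 9.32 and 2.84 and 2.91, 6.28 and 2.69 in DEX. EXPA18, known from root hairs, read 8.58, 4.90 and 4.92 in DMSO and 5.45, 5.35 and 5.60 in DEX, highest in DMSO replicate 1, and EXPA7, also of root hairs, read 5.71, 2.29 and 2.80 and 3.56, 2.80 and 4.03. EXPA18 thus read above the floor in all 6 arrays of RNA labelled hypocotyl, while EXPA7 was at the floor in DMSO replicate 2. Both were highest in DMSO replicate 1, a doubtful array. Whether root hair transcripts were present was not tested. The mean of the 4 measured root markers was 5.04, 6.21 and 5.98 in DMSO and 3.88, 5.94 and 3.79 in DEX, and that of the 2 measured phloem markers was 3.77, 7.32 and 7.53 in DMSO and 4.68, 7.05 and 4.95 in DEX. OPS, the other of these, was at 2.43 to 4.07. The part of other cell types in the calls above was not tested. No epidermis marker of the list was measured under its name. Of the cambium genes CLE41, PHV and LHW were called down without the 2 arrays, and none of 4 with all arrays.

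To describe where the doubtful arrays stood gene by gene, each was placed on a scale that is 0 at the mean of DMSO replicates 2 and 3 and 1 at the mean of DEX replicates 1 and 3. Over the 2597 probe sets called up without the 2 arrays, DMSO replicate 1 had a median place of 0.67 and DEX replicate 2 of 0.09. Over the 3666 called down the medians were 0.87 and 0.12. DMSO replicate 1 was past the midpoint of 0.5 in 66.6% of the former and 85.3% of the latter, and DEX replicate 2 in 16.9% and 12.9%. The midpoint was chosen after the values were seen.

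**Figure D3:**
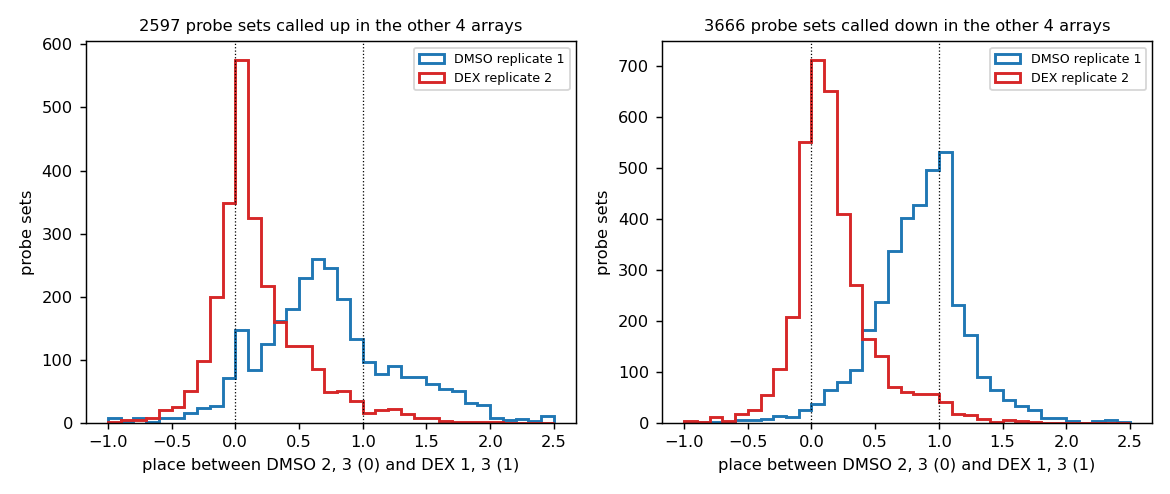
Number of probe sets (y axis) by place on the scale from the mean of DMSO replicates 2 and 3 (0) to the mean of DEX replicates 1 and 3 (1), for DMSO replicate 1 in blue and DEX replicate 2 in red; values beyond the axis are put in the end bins. The medians are 0.67 and 0.09 for probe sets called up (left) and 0.87 and 0.12 for those called down (right).

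The probe sets called up without the 2 arrays fell into 4 classes by these places. In 1451 of them only DMSO replicate 1 was past the midpoint, and in 707 neither array was. In 278 both were, and in 161 only DEX replicate 2 was, as both labels would have it. At other times, whose arrays the classes did not use, the median DEX effect of the 161 was 2.71 at 12 h and 1.71 at 30 h, and that of the 1451 was 0.91 and 2.19. The 278 had 2.62 and 2.60, and the 707 had 1.10 and 1.42. DEX 12 h replicate 2 stood apart from its group, as given below, and without it the 12 h medians were 2.57 for the 161, 0.49 for the 1451, 2.60 for the 278 and 0.64 for the 707. The median effect of the 161 was larger at 12 h than at 30 h with and without that array, and that of the 1451 was larger at 30 h.

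Examples of each class were the 8 largest without the 2 arrays. An array short of the midpoint can still be well above its couple, as in NCRK and AT4G33810 for DMSO replicate 1 and in AT3G10590 for DEX replicate 2. Among those past the midpoint in DEX replicate 2 alone were NCRK, AT1G21810, AT1G06170, the plasma membrane nucleotide carrier gene PM-ANT and the formin gene AT3G32400. AT3G32400 read 6.68, 5.31 and 5.34 in DMSO and 10.03, 8.35 and 9.61 in DEX. Among those past it in both was AT2G45040, a matrix metalloproteinase gene, with 8.39, 2.25 and 2.26 and 9.65, 8.00 and 10.26. Among those past it in DMSO replicate 1 alone was AT3G10590, a MYB-like gene with the largest rise of the 4-array fit, which read 8.91, 2.15 and 2.17 in DMSO and 12.94, 7.19 and 12.04 in DEX. It was called with all arrays too, at 6.31 ± 1.62 (limma adjusted p = 0.0133), and at 10.33 ± 1.74 without the 2. AT3G07450, a lipid transfer protein-like gene, was at the floor in DMSO replicates 2 and 3 and DEX replicate 2, with 10.55, 2.14 and 2.14 and 11.49, 2.14 and 11.04, and was not called with all arrays. Among those past it in neither was AT4G33810, a family 10 xylanase gene, with 9.05, 5.55 and 5.52 and 13.44, 6.32 and 13.22 (4.29 ± 1.26, limma adjusted p = 0.0294).

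Of the probe sets called down without the 2 arrays, only DMSO replicate 1 was past the midpoint in 2739, both in 388, only DEX replicate 2 in 85 and neither in 454. Both arrays were past it in TCP15, a TCP transcription factor gene, with 3.43, 7.96 and 8.35 in DMSO and 3.22, 5.60 and 3.85 in DEX, and in WAG2, a kinase gene of auxin transport, with 3.10, 7.50 and 8.26 and 3.43, 4.01 and 3.19. AUR1, an Aurora kinase gene of cell division, was among those past it in neither, with 4.90, 6.28 and 5.51 in DMSO and 3.01, 5.88 and 3.02 in DEX.

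The empty-vector line served to show what DEX did without VND7. At 24 h 21 probe sets rose there and 7 fell, 0.0923% and 0.0308% of those tested. None of the 657 rises or 333 falls of the VND7 line was among them, but at such small shares few or none would be in any case. The largest rise was AT1G28160, an ERF transcription factor gene, with 2.14, 2.14 and 2.14 in the 3 empty-vector DMSO arrays and 5.40, 5.48 and 5.89 in the DEX arrays (3.45 ± 0.07, limma adjusted p = 1.7e-37). In the VND7 line it was at the floor in all 6 arrays. Its error and p rest on a spread taken over all groups, which was 0 in groups at the floor. The 3 empty-vector DEX arrays themselves had a standard deviation of 0.26. AT3G15720, a polygalacturonase gene, read about 4, 3.21 and 3.97 and 6.78, 6.81 and 6.24 in the empty vector and 2.14 to 2.85 in the VND7 line. The other 3 largest rises were AT4G31470, AT1G78460 and AT3G50570, at 2.23, 2.21 and 2.04. The 5 largest falls, AT1G06830, AT5G38020, AT1G75460, AT3G50270 and AT4G00750, lay between −1.81 and −1.04.

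The difference of the DEX effect between the lines, VND7 minus empty vector, was called in 31 probe sets upward and 38 downward with all arrays, 0.136% and 0.167% (0.303% together), and in 1786 and 2544 without the 2 (7.85% and 11.2%, 19.0% together). After centring the all-array counts were 43 and 28. Of the 657 rises 25 were called in this difference with all arrays and 571 without the 2, and of the 333 falls 15 and 269. These rises and falls were picked by the same VND7-line arrays that enter the difference. The counts are therefore no separate support for them. The 5 largest upward were AT1G21810 at 5.47 ± 1.10, AT1G06170 at 4.84, AT1G62170 at 3.87, AT4G14200 at 3.75 and AT3G32400 at 3.73. Of the other markers, GH9B18 had a difference of 4.45 ± 1.22 (limma adjusted p = 0.0886) and TBL34 of 4.37 ± 1.74 (limma adjusted p = 0.3), and neither was called with all arrays. Without the 2 arrays both were called up, GH9B18 at 3.67 ± 1.34 (limma adjusted p = 0.0422) and TBL34 at 6.34 ± 1.83 (limma adjusted p = 0.0127). Of the 5 largest downward, AT1G28160 and AT3G15720 are the genes given above. AT1G72500, AT1G21670 and AT3G50560 had effects of −1.68, −2.25 and −1.25 in the VND7 line against 1.54, 0.94 and 1.90 in the empty vector.

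The arrays at 12 h and 30 h show where 24 h stood in the course of induction. None of them is among the 10 doubtful arrays of the series, but DEX 12 h replicate 2 correlated at 0.936 and 0.934 with replicates 1 and 3, which correlated at 0.996 with each other. Why it differs was not tested. At 12 h 22.2% of the probe sets were called, 8.94% up and 13.2% down. At 30 h 28.0% were called, 12.7% up and 15.2% down. The share at 24 h was 4.35% with all arrays and 27.5% without the 2 doubtful arrays. Without DEX 12 h replicate 2 the calls at 12 h went from 5039 to 4253. Of the 657 rises at 24 h, 536 were also called up at 12 h and 571 at 30 h. Of the 333 falls, 302 were called down at 12 h and 253 at 30 h. At 12 h 1 of the rises was called down, and none of the others was called in the opposite direction at either time. The effect of GH9B18 was 5.19 at 12 h, 4.46 at 24 h and 2.18 at 30 h, and that of AT1G62170 was 6.42, 3.87 and 1.17. AT1G62170 in the DEX arrays read 8.54, 8.68 and 8.47 at 12 h against 5.11, 2.59 and 2.23 at 30 h. For IRX15 the DEX arrays read 3.07, 11.26 and 2.78 at 12 h against 10.66, 10.14 and 10.02 at 30 h. For ALPHA-VPE they read 3.65, 7.73 and 3.32 against 10.86, 11.23 and 10.81. At 12 h 1 of the 3 arrays, DEX replicate 2, was high for both.

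**Figure D4:**
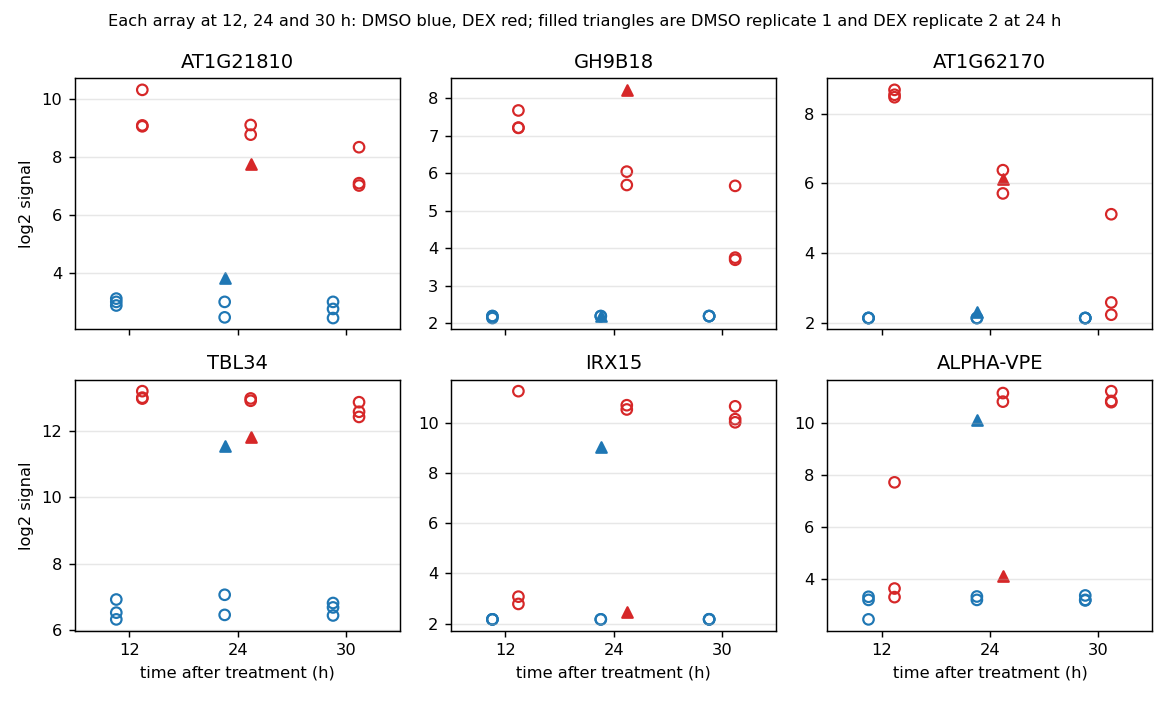
Log2 signal (y axis, its range differs between panels) of 6 genes in each VND7-line array at 12, 24 and 30 h (x axis); blue is DMSO, red is DEX, each point is 1 array, and filled triangles are DMSO replicate 1 and DEX replicate 2 at 24 h. GH9B18 and AT1G62170 are lower in DEX at 30 h than at 12 h, and for IRX15 and ALPHA-VPE the triangles at 24 h stand with the other label.

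The effect at 24 h minus that at 12 h was called in 105 probe sets upward and 198 downward with all arrays, 0.462% and 0.870% (1.33% together), and in 261 and 330 without the 2 arrays (1.15% and 1.45%). After centring the all-array counts were 59 and 512. Without DEX 12 h replicate 2 they were 262 and 646, and 1014 and 1277 without the 2 arrays as well. An upward difference can be a fall that had weakened. AT5G62350, a pectin methylesterase inhibitor gene, fell by 5.43 at 12 h and by 1.61 at 24 h on the log2 scale, with 11.02, 11.43 and 11.72 in DMSO and 9.76, 9.89 and 9.68 in DEX at 24 h (difference 3.81 ± 0.55, limma adjusted p = 2.88e-05). SPT, the bHLH gene SPATULA, had an effect of −4.51 at 12 h and −1.20 at 24 h, with 5.18, 7.77 and 8.07 in DMSO and 5.11, 7.66 and 4.64 in DEX, and −3.05 without the 2 arrays. Its difference of 3.31 (limma adjusted p = 0.0369) became 1.46 without the 2 arrays (limma adjusted p = 0.359) and was not called. The weaker fall of SPT at 24 h thus depended on the doubtful arrays. The others of the 5 largest were AT4G25780, AT4G30460 and AT4G29690. Without the 2 arrays the difference of AT4G25780 was not called either (limma adjusted p = 0.125), while those of AT4G30460, AT4G29690 and AT5G62350 were.

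The 5 largest downward differences were AT3G58540, AT4G39320, AT1G56060, AT4G21865 and AT3G59440, with effects of 3.84 to 5.70 at 12 h. AT4G39320 read 4.16, 4.52 and 4.44 in DMSO and 9.95, 10.37 and 9.91 in DEX at 12 h. At 24 h it read 2.94, 5.57 and 5.48 in DMSO and 5.59, 5.74 and 5.57 in DEX, where 5 of the 6 arrays were within 0.3 of each other (difference −4.73 ± 0.79, limma adjusted p = 0.000213). The array that stood apart at 24 h was DMSO replicate 1, the lowest.

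The effect at 24 h minus that at 30 h was called in 0 probe sets upward and 5 downward with all arrays (0.0220%), and in 13 and 2 without the 2 (0.0572% and 0.00879%, 0.0659% together). With all arrays limma gave an unadjusted p under 0.05 in 3107. After centring none was called. Of the 5, the 3 with a gene name were AT5G02350, BGLU32 and AT1G49030, with differences of −2.51, −1.60 and −1.50. AT5G02350 read 4.41, 2.15 and 2.22 in DMSO and 2.26, 2.21 and 2.26 in DEX at 24 h. BGLU32, a beta-glucosidase gene, read 3.23, 2.14 and 2.14 and 2.36, 2.14 and 2.98, and AT1G49030 read 3.64, 2.36 and 2.36 and 2.43, 2.36 and 2.36. All 3 were raised at 24 h in DMSO replicate 1, and without the 2 arrays their 24 h effects were 0.08, 0.53 and 0.03.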

How the data were processed

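The deposited values were log2 signals per ATH1 probe set, made with GCRMA per the submitters' processing notes, whose version is not given in the sources used here. GCRMA corrects for background, equalises the arrays and sets a floor, so weak probe sets crowd at low values and small changes among them are lost. The lowest value is 2.14, but some probe sets repeat a higher one. AT1G78460 read 4.68 in all 6 VND7-line arrays at 24 h. No scaling was added. The file held 22810 probe sets, of which 64 controls were left out and 22746 tested. Of these 13513 named 1 gene, 503 several and 8730 none, and 13436 matched RefSeq gene names (assembly TAIR10.1) by gene ID. The 77 not matched kept the file's name. No coordinates or sequences are given.

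With limma 3.58.1 in R 4.3.3 a mean was estimated for every group from the 69 arrays together, with a trended variance prior, so the p-values rest on a spread taken over the whole series, 8 other arrays of doubtful label among it. The script was tested on simulated data. Comparisons with 12 h, 30 h and the empty vector share the 24 h arrays.

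Named genes were the 3 markers, the 15 largest rises and falls with groups apart, 10 of each without the 2 doubtful arrays, 5 each way for every difference and for the empty vector, and members of 48 gene lists, 7 of which had no measured member. Class examples were taken by size after the values were seen. The members and lists were chosen with earlier results of these data known. Alternatives were median centring, quantile normalization, a filter on dim probe sets, array weights, a replicate block, the compared groups alone, no minimum change and each array left out.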

Additional observations from a re-analysis of the deposited data

Results flagged for a closer look

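The effect of DEX at 24 h differed between the VND7 line and the empty vector in 69 probe sets with all arrays, by limma's test of the difference itself, and in 4330 without the 2 doubtful arrays. It differed between 24 h and 12 h within the VND7 line in 303 probe sets, in 591 without the 2 arrays and in 908 without DEX 12 h replicate 2. It differed between 24 h and 30 h in 5 probe sets, all with a lower value at 24 h, and in 15 without the 2 arrays, 13 of them with a higher one. In the 3 named genes among the 5, AT5G02350, BGLU32 and AT1G49030, the DMSO arrays at 24 h read 4.41, 2.15 and 2.22, 3.23, 2.14 and 2.14, and 3.64, 2.36 and 2.36, so replicate 1 was the highest in each.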

How the results depend on the processing

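The number of calls at 24 h, 990, moved with the arrays that entered. It was 6263 without both, and 269 to 3755 with 1 of the 6 arrays left out: 3236, 369 and 443 without DMSO replicates 1, 2 and 3, and 269, 3755 and 310 without DEX replicates 1, 2 and 3. It was 6922 without all 10 doubtful arrays of the series, 6270 with array weights, which did not converge, 1828 with no minimum change and 1 with the compared groups alone, or 5830 with those groups and without the 2 arrays. Median centring moved all changes by 0.22 and the share of rises from 66.4% to 80.4% (quantile normalization, 74.1%). Without the 2 arrays it moved them by 0.48 and the share from 41.5% to 63.5%, of 7070 calls.

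The difference from the empty vector, 69, became 4330 without the 2 arrays, 6253 without the 10, 6000 with weights and 29 to 1254 with 1 array left out, lowest without VND7 DEX replicate 1 and highest without DEX replicate 2. The difference from 12 h, 303, became 591, 2506, 4237 and, with 1 array left out, 241 to 908 in that order (908 without DEX 12 h replicate 2, 478 without DEX 24 h replicate 2), 5 with the compared groups alone, 571 after centring (59 upward and 512 downward) and 509 with no minimum. The difference from 30 h, 5, became 15, 37, 94 and 0 to 25, 1 with the compared groups alone, 0 after centring or for probe sets with a mean of at least 4, and 11 with no minimum. At an unadjusted p under 0.05 limma gave 3107 there. The empty-vector calls, 28, became 6 with its groups alone, 11 with the filter on the mean, 111 with weights and 45 with no minimum, and 21 to 29 with 1 array left out. The cause of these shifts was not tested, other than that fewer arrays or no minimum change the test by construction.

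Same-numbered DEX and DMSO arrays at 24 h deviated from their group means with correlations of 0.73, 0.77 and −0.71. The doubtful arrays set these deviations, so the values cannot tell whether same-numbered arrays are paired. In the empty-vector line at 24 h the correlations were −0.005, 0.03 and 0.12. With a replicate block the counts were 995, 171, 290, 0 and 26 in the order above.

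Of 126 named genes none turned direction in a call when 1 array was left out, on centring or on quantile normalization with all arrays. EXPA7, not called with all arrays, was called up at 1.00 with weights, 1.25 without the 10 arrays and 1.73 on centring without the 2, and BGLU32 at 1.02 on that centring. The settings without the 10 arrays or DEX 12 h replicate 2, and those that join centring or the compared groups with leaving out the 2, were chosen after seeing the data.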

Other observations

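Some enzymes of wall chemistry and stress had calls that the account above gives only as counts. Among the serine carboxypeptidase-like genes SCPL49 and SCPL29 rose with all arrays. SCPL49 read 10.06, 9.03 and 9.51 in DMSO and 12.18, 9.67 and 11.95 in DEX (1.73 ± 0.48, limma adjusted p = 0.0221), and SCPL29 read 10.23, 9.37 and 9.13 and 12.01, 10.07 and 11.64 (1.66). In both, DMSO replicate 1 lay just above DEX replicate 2, and both were nearer the other DMSO arrays than DEX replicates 1 and 3. SCPL50 fell, with 4.73, 7.20 and 6.54 in DMSO and 3.27, 5.65 and 4.31 in DEX. UGT74D1, a glycosyltransferase gene that acts on auxin, fell too, with 7.39, 8.49 and 7.69 and 5.96, 7.34 and 5.99 (−1.43 ± 0.43, limma adjusted p = 0.0338).

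BGLU45 and BGLU46, beta-glucosidase genes that act on the glucosides of lignin precursors, were called up without the 2 doubtful arrays and not with them. BGLU46 read 11.23, 7.92 and 8.53 in DMSO and 10.72, 8.44 and 10.48 in DEX, highest in DMSO replicate 1. Of the glutathione transferases, GSTU22 and GSTU25 were high in both doubtful arrays. GSTU22 read 13.20, 8.01 and 7.93 in DMSO and 11.88, 11.85 and 11.98 in DEX, and GSTU25 read 13.39, 6.22 and 7.25 and 12.97, 11.68 and 12.76, so that in each only DMSO replicates 2 and 3 were low. GSTU20 was low in DMSO replicate 1 and DEX replicates 1 and 3, with 3.01, 9.98 and 8.34 in DMSO and 2.49, 8.37 and 2.96 in DEX.

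Among 6 measured stress and starvation genes none was called with all arrays and 3 were called up without the 2. The redox gene GRX480 read 8.34 in DMSO replicate 1, 3.17 and about 4 in the other DMSO arrays and 7.43, 4.47 and 7.67 in DEX, and the defence regulator WRKY53 read 6.37, 4.37 and 4.53 and 6.57, 4.20 and 6.59. PDF1.2, a defensin gene of the jasmonate response, was at the floor in all 6 arrays.

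In the lists not yet counted, none was called with all arrays. Without the 2 arrays 3 of 15 organelle-encoded ribosomal protein genes, 1 of 3 cyclins and cell cycle kinases, 1 of 2 LBD factors and the 1 measured NAC factor and ABC transporter gene were called down, and 1 of 6 WRKY factors, WRKY53, was called up. Of all probe sets 16.1% were called down and 11.4% up without the 2 arrays. None of 6 cytokinin response genes or 2 heat shock protein genes was called in either setting. Of the 2 kinesins the other than KINESIN-13A was called down without the 2 arrays.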
